A study of Rattus norvegicus with 4 samples.

Results

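Metallothioneins and the genes of the antioxidant response were followed in the neonatal rat prefrontal cortex after prenatal exposure to bisphenol A (BPA). BPA is a synthetic compound present in epoxy resins and polycarbonate plastic, and it is an endocrine-disrupting chemical. The members were chosen by name, as 10 gene symbols, and 9 of them had a row of their own among 17419 genes and assembled transcripts: Mt1, Mt2A, Mt3, Mtf1, Nfe2l2, Hmox1, Nqo1, Gclc and Gclm. The symbol Mt1a had no row, and the RefSeq gene table lists it as another name of Mt1. The libraries came from Wistar pups (Wistar Furth in the methods) at postnatal day 1 by the labels, and 1 library was analyzed for each sex and treatment. They are named control male, control female, BPA male and BPA female. Dams of the BPA groups received 5000 µg/kg of BPA by oral gavage every day from gestation day 1 until birth, and control dams received the vehicle. The treatment reached the pups through the dam, so the litter shares it. The methods describe 3 pups per sex and treatment from 6 litters with the meninges removed, and whether a library pooled pups is not stated. The question asked of the members was whether their RNA levels differed between BPA and control libraries, within each sex and with the sexes combined.

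Metallothioneins are small, cysteine-rich proteins that bind zinc and copper. Mt1 and Mt2A are made in many tissues and are induced by metals, glucocorticoids and inflammation, whereas Mt3 is the form typical of the brain. Mtf1 encodes the transcription factor that senses zinc and switches on metallothionein genes through metal response elements. Nfe2l2 encodes NRF2, which is held in check by KEAP1 and, when released by oxidants or electrophiles, acts on genes with antioxidant response elements. Hmox1, Nqo1, Gclc and Gclm are standard NRF2 target genes. Hmox1 encodes the inducible heme oxygenase, which degrades heme, and Nqo1 a quinone reductase. Gclc and Gclm encode the catalytic and the modifier subunit of glutamate-cysteine ligase, which starts glutathione synthesis.

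The promoters of the metallothionein genes are shown because they carry the sites through which MTF1 is known to act. In the RefSeq gene table (assembly GRCr8), Mt1, Mt2A, Mt3 and Mt4 followed one another on chromosome 19, between Nup93 and Bbs2. The sequences are the 250 bases before the annotated start of each gene on GRCr8, from RefSeq, 5′ to 3′ on the coding (minus) strand, so that none of the transcribed gene is included. They lie at chr19:10832976-10833225 for Mt1, chr19:10838709-10838958 for Mt2A and chr19:10856081-10856330 for Mt3. Capitals mark matches to the core of the metal response element, searched as TGCACNC or TGCGCNC on both strands.
Mt1: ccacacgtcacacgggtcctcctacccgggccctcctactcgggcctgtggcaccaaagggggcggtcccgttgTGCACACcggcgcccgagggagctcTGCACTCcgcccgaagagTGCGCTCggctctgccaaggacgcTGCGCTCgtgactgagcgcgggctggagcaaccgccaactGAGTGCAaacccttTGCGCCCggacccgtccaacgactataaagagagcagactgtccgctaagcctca
Mt2A: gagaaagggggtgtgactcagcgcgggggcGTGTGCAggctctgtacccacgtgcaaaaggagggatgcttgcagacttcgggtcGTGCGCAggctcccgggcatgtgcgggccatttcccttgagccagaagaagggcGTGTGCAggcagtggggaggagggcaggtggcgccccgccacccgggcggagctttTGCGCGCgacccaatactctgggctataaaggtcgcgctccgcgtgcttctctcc
Mt3: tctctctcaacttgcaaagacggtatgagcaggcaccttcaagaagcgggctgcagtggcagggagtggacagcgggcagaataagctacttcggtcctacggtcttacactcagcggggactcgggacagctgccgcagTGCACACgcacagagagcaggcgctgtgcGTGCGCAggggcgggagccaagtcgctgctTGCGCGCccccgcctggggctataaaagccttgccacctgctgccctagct

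Mt1 held 6 such cores, Mt2A held 4 and Mt3 held 3, and within a promoter none of them overlapped. At least 1 core was present in 20.6% of all 33469 promoters of the table, at least 3 in 1.17% and at least 5 in 0.0747%. Of the other members, Mtf1 and Gclm held 2 cores each, and Nfe2l2, Nqo1 and Gclc held 0 in this window. The core of the antioxidant response element was searched as TGACNNNGC on both strands. It matched once in Mt1, Mt2A and Gclm and at 2 positions in Mtf1, with 0 matches in Mt3, Nfe2l2, Nqo1 and Gclc, against at least 1 match in 10.1% of all promoters. In Mt1 and Mt2A it did not overlap a metal response core. A match is a description of these letters only. The promoter table matched 8 of the 9 members, and Hmox1 was not among them.

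Levels are given as FPKM, the fragments mapped to a gene, which the authors normalized to gene length and sequencing depth. Because FPKM is adjusted for length, levels can be compared between genes. The depth of each library, recovered from the steps of low FPKM values, was between 8957945 and 9259260 fragments. From it, the number of fragments behind each level was estimated, together with an exact 95% interval of each ratio, which covers counting error only. Markers of cortical neurons were present in all libraries (Neurod6, a transcription factor of cortical projection neurons, at 216 to 255 FPKM), and those of choroid plexus were near 0, with a summed level of 1.38 to 3.97 FPKM over 9 genes. Markers of meninges and vessel wall, by contrast, were lower in both BPA libraries than in both controls for all 17 genes, against 31.9% of all features tested. Their median log2 ratio was -1.44, and 11 of the 17 fell by limma, where 0.562% of all features tested were called. Of these markers, 6 were called without control male, 4 without BPA male and 1, Igf2, without either female library. Their summed level was 566 and 725 FPKM in control male and female, and 256 and 176 FPKM in BPA male and female. In tissue RNA, fewer cells of a type and less RNA per cell cannot be told apart. Of the markers of striatum and olfactory bulb, 7 of the 8 tested were above both controls, against 18.7% of all features tested. Of these 7, Rxrg (log2 ratio 1.79, limma adjusted p = 0.0254) and Penk (0.64, adjusted p = 0.0462) rose. The remaining gene, Cdhr1, fell (-2.04, adjusted p = 0.00841). Of the markers of cortical neurons, 10 were tested. Among them Neurod2, a neuronal transcription factor, rose and Slc17a7, a vesicular glutamate transporter, fell. Neither was called with any 1 of the 4 libraries left out, nor was Penk, whereas Rxrg was called without either control library but not without either BPA library, and Cdhr1 in each of these 4 fits. Without the filter on low values, 0 of the markers of these 3 lists were called.

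Mt3 was by far the most abundant member, with a mean level of 132 FPKM, which placed it at percentile 96.9 of the 16182 features listed in all 4 libraries. Gclc and Mt2A came next, at 18.9 FPKM each, and their ranges over the 4 libraries overlapped (16.9 to 20.3 and 14.2 to 24.8 FPKM). Gclm followed at 10.3 FPKM (9.04 to 11.9), below every Mt2A value. Mt1, at a mean of 7.61 FPKM, ranged from 3.36 to 13.2 and so overlapped Gclm as well as all members below it. Hmox1, Mtf1, Nqo1 and Nfe2l2 had mean levels of 4.22, 3.64, 3.42 and 3.39 FPKM, and these 4 overlapped one another.

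**Figure D1:**
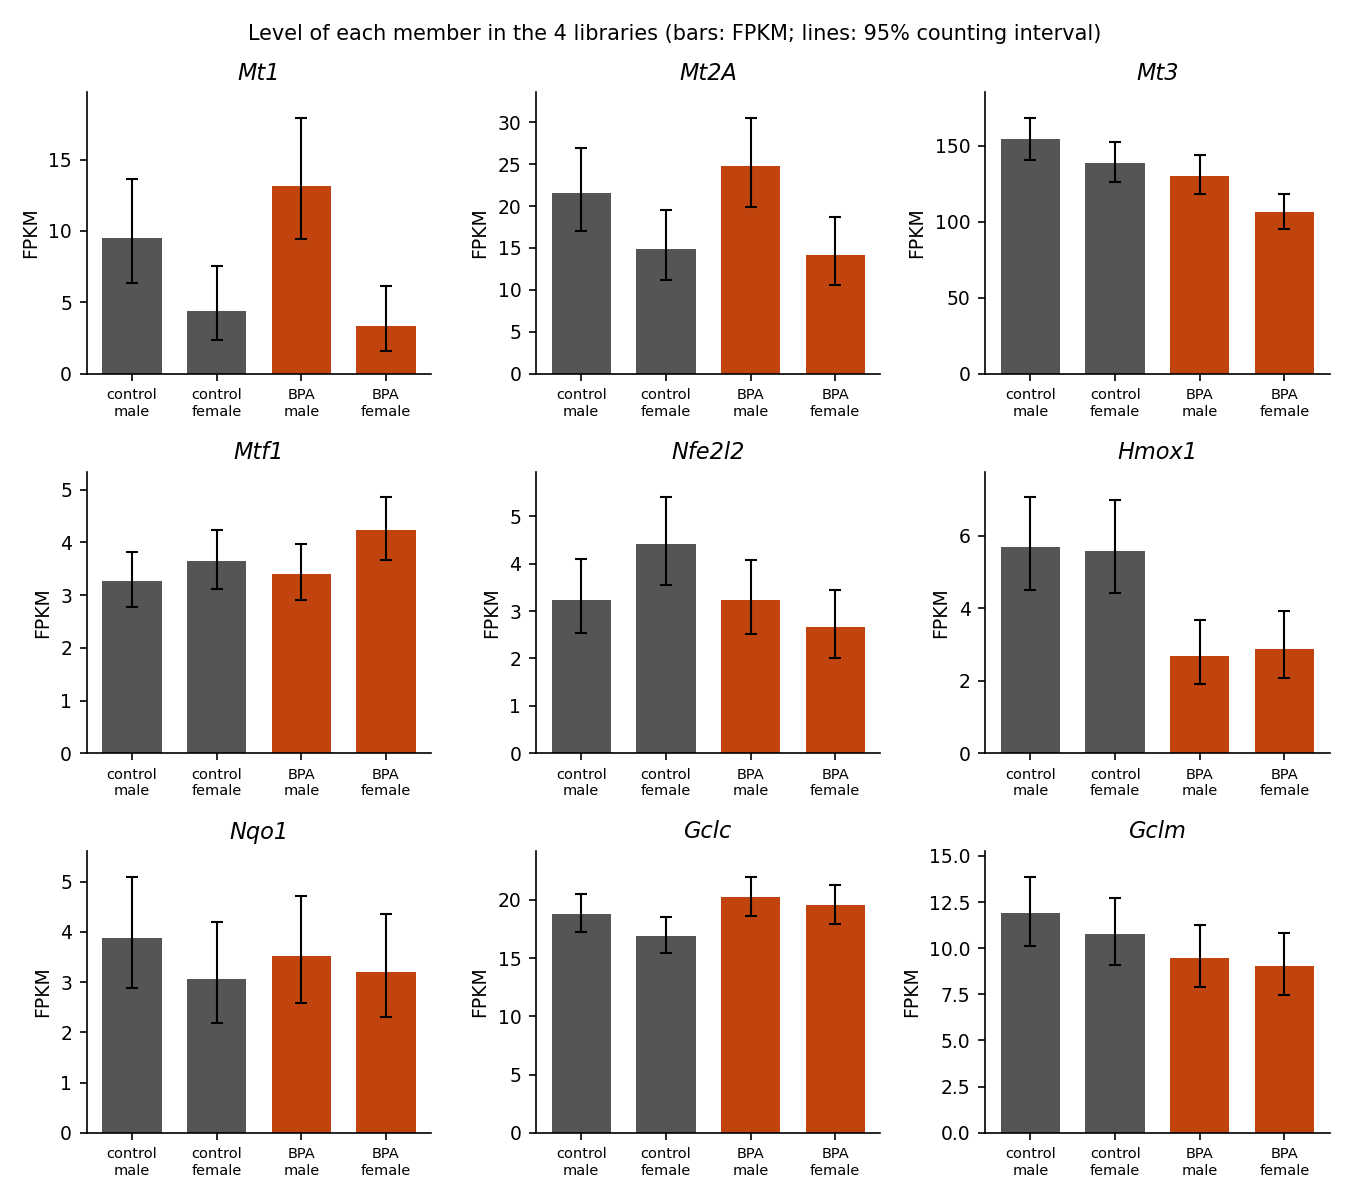
Level of the 9 members in FPKM (linear axes from 0), with 1 bar per library: control in gray, BPA in orange. Black lines are exact 95% Poisson intervals of the estimated fragments, which cover counting error only. Hmox1 stands at 5.59 and 5.69 in the controls and at 2.69 and 2.89 in the BPA libraries, whereas the male bars of Mt1 and Mt2A stand above the female bars in both treatments.

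No member was called between BPA and control when the sexes were combined (limma with Benjamini-Hochberg adjustment over 13163 genes and transcripts, 2 libraries against 2), where 0.562% of all features tested were called. At an unadjusted p under 0.05, 3 of the 9 members passed, Hmox1, Mt3 and Gclm, all lower, where 17.3% of all 13163 features tested passed (1585 lower and 698 higher). Both BPA libraries lay above both controls for 1 member, Gclc, against 18.7% of all features tested. They lay below both controls for 4 members, Mt3, Nfe2l2, Hmox1 and Gclm, against 31.9% of all features. The other 4, Mt1, Mt2A, Mtf1 and Nqo1, overlapped. Over the 9 members, the median combined log2 ratio was -0.03, beside -0.04 over all features tested. The log2 ratios were taken on FPKM + 0.5, which understates the change of low genes. Within a sex, 1 library stood against 1, so there is no test and no replicate check, and a log2 ratio of 1 or more in absolute value was counted. It was reached by 0 of the 9 members in males, where 4.33% of all 16782 features listed reached it, and by 0 in females, where 5.22% of 16819 did. With a pseudocount of 0.1 in place of 0.5, 1 of the 9 members, Hmox1, reached it in males, at -1.05, where 11.2% of all features did.

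**Figure D2:**
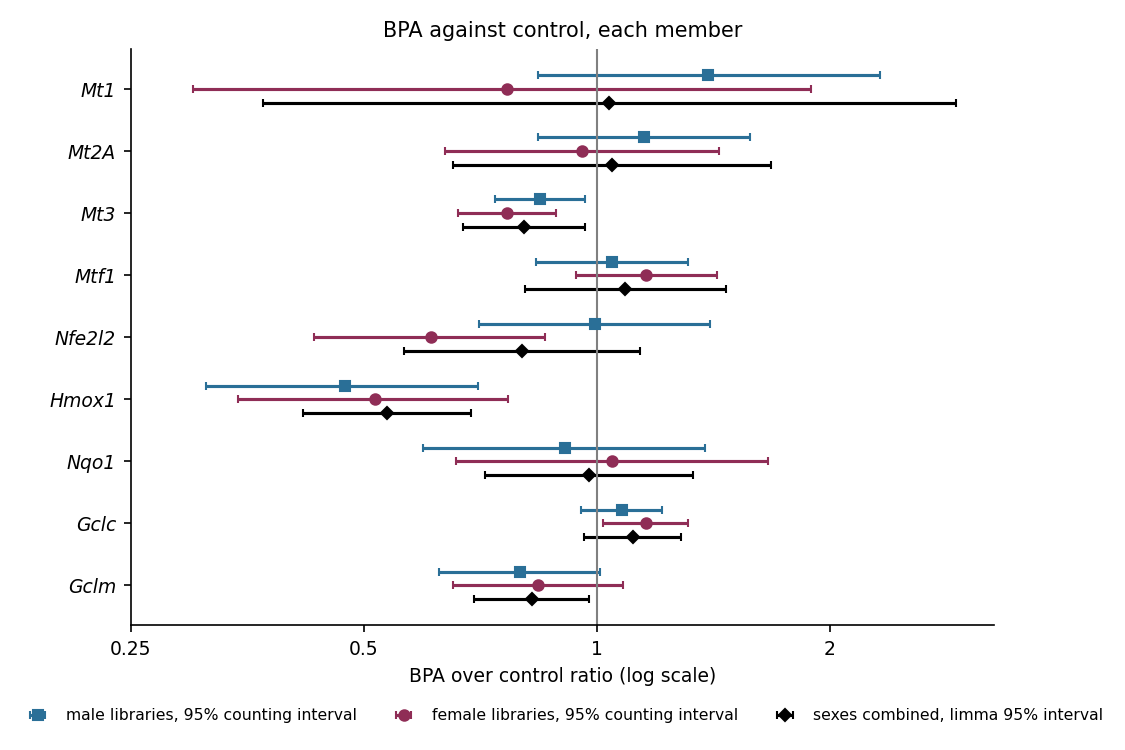
BPA over control ratio of each member on a log axis. Squares are the male and circles the female libraries with exact 95% counting intervals from estimated fragments. Black diamonds are the combined estimates with 95% limma intervals, on the scale of FPKM + 0.5. Only Hmox1 and Mt3 have both counting intervals wholly on one side of 1, here below it.

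Among the metallothioneins, Mt3 was lower in the BPA libraries of both sexes. It was listed at 154 FPKM in control male, 139 in control female, 130 in BPA male and 106 in BPA female, from 330 to 493 estimated fragments. Both BPA libraries were below both controls, and the female library was the lower one in each treatment. The BPA over control ratio was 0.844 in males (95% counting interval 0.739 to 0.964) and 0.766 in females (0.661 to 0.886). With the sexes combined, the log2 ratio was -0.31 (SE 0.11, 95% interval -0.58 to -0.05), and it did not pass the threshold (limma adjusted p = 0.229). It was -0.17 without BPA female and -0.46 without BPA male. Astrocytes are among the cells in which Mt3 is expressed. Over all features tested, 31.9% were below and 18.7% above both controls, and 17.3% had an unadjusted p under 0.05. Of 15 markers of astrocytes and radial glia, 10 were below and 1, Sox9, above both controls. Of these 15, 0 were called by limma, 9 had an unadjusted p under 0.05, and their median log2 ratio was -0.33. Their summed level was 1329 and 1404 FPKM in control male and female, and 1128 and 920 in BPA male and female. The part of these cells in the Mt3 value was not tested.

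Mt1 and Mt2A were higher in both male libraries than in both female libraries. The same held for 1 other member, Nqo1, 3 of 9 in all, against 15.1% of all features tested. For 1 member, Mtf1, both male libraries lay below both female libraries, against 12.2% of all features. Mt1 was listed at 9.49 FPKM in control male, 4.40 in control female, 13.2 in BPA male and 3.36 in BPA female. The largest gap between the sexes was between the BPA libraries. These levels rest on only 29, 13, 40 and 10 estimated fragments, in the same order. Within a treatment, the male over female ratio of Mt1 was 2.16 in controls (95% counting interval 1.09 to 4.52) and 3.92 in BPA libraries (1.93 to 8.79). Mt2A showed the same order, with 21.6 FPKM in control male, 14.9 in control female, 24.8 in BPA male and 14.2 in BPA female. Its male over female ratio was 1.45 in controls (1.01 to 2.10) and 1.74 in BPA libraries (1.22 to 2.52). For Mt3, the ratio was nearer to 1, at 1.11 in controls (0.975 to 1.27) and 1.23 in BPA libraries (1.06 to 1.42). With 1 library per sex and treatment, a difference between the sexes and one between litters or dissections cannot be told apart.

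**Figure D3:**
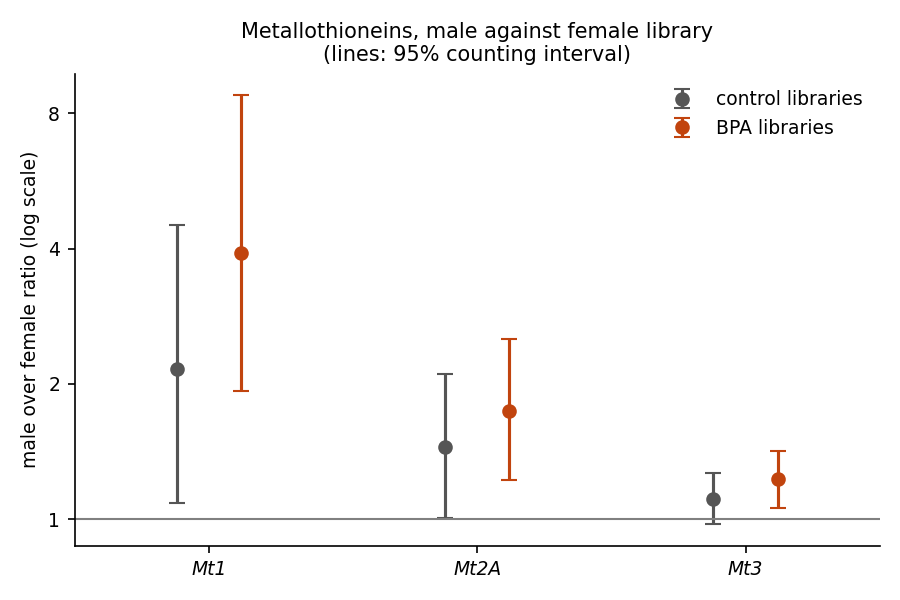
Male over female ratio of Mt1, Mt2A and Mt3 on a log axis, for the control libraries (gray) and the BPA libraries (orange), with exact 95% counting intervals. The ratios of Mt1 are 2.16 and 3.92, those of Mt2A 1.45 and 1.74, and those of Mt3 1.11 and 1.23.

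Against control, Mt1 and Mt2A were higher in the male and lower in the female BPA library, and all counting intervals spanned 1. For Mt1, the BPA over control ratio was 1.39 in males (0.841 to 2.33) and 0.766 in females (0.301 to 1.89). For Mt2A, it was 1.15 in males (0.839 to 1.58) and 0.957 in females (0.636 to 1.44). The combined log2 ratios were 0.05 for Mt1 (SE 0.61) and 0.07 for Mt2A (SE 0.28), with limma adjusted p of 0.972 and 0.925. With 1 library left out they ran from -0.86 (without BPA male) to 0.97 for Mt1, and from -0.33 (without BPA male) to 0.46 for Mt2A. The interval for Mt1 ran from -1.43 to 1.54, so that a change of considerable size in either direction was not detectable at this depth and number of libraries. The 3 metallothioneins together came to 185 FPKM in control male, 158 in control female, 168 in BPA male and 124 in BPA female, of which Mt3 held 83.2, 87.8, 77.4 and 85.8%. Mt4, the form typical of stratified epithelium, was at the lowest value of the files (0.01, taken as 0) in control male and at 0.69 FPKM, or 4 estimated fragments, in BPA male, and was not among the rows of the female libraries.

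Mtf1, the zinc sensor, was listed at 3.26 FPKM in control male, 3.65 in control female, 3.41 in BPA male and 4.23 in BPA female. The groups overlapped, and the combined log2 ratio was 0.12 (SE 0.18, limma adjusted p = 0.755). The 25 tested genes of a list of zinc and copper carriers included 0 called by limma and 5 with an unadjusted p under 0.05, all lower, a share of the list near the 17.3% of all features at that p. In this list 4 were above and 12 below both controls, beside 18.7% and 31.9% of all features, and the median log2 ratio was -0.09. The list ran from Slc39a8, a zinc and manganese importer, at a log2 ratio of -0.61 (limma adjusted p = 0.161), to Slc39a9, another zinc carrier, at 0.28 (adjusted p = 0.300). Slc39a8 was listed at 4.60 and 5.16 FPKM in control male and female and at 2.84 and 3.23 in BPA male and female. Second from these ends stood Ccs, the copper chaperone of superoxide dismutase, at -0.37, and Atox1, a copper chaperone of the secretory pathway, at 0.22. Slc30a1, the zinc exporter that MTF1 is known to induce, had a log2 ratio of -0.10, with overlapping groups.

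Hmox1 showed the largest difference of all members. It was listed at 5.69 FPKM in control male, 5.59 in control female, 2.69 in BPA male and 2.89 in BPA female. The libraries of a treatment lay close together, with a mean of 5.64 ± 0.0707 FPKM in controls and 2.79 ± 0.141 in BPA libraries (SD, n = 2), and the groups did not overlap. Behind these levels stood 81, 77, 38 and 40 estimated fragments, in the same order. The BPA over control ratio was 0.473 in males (95% counting interval 0.313 to 0.703) and 0.517 in females (0.344 to 0.767). The combined log2 ratio was -0.90 (SE 0.15, 95% interval -1.26 to -0.54), and it missed the threshold by limma with Benjamini-Hochberg adjustment (adjusted p = 0.0730). With the same values and only rows that carry an NCBI Gene ID in the fit, the adjusted p was 0.0117. With any 1 of the 4 libraries left out it was between 0.171 and 0.279, while the log2 ratio stayed between -0.94 and -0.86.

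Hmox1 is known to be strongly expressed in macrophages that take up heme, and it is expressed in vessels and meninges as well. Over all features tested, 31.9% were below both controls and 17.3% had an unadjusted p under 0.05. Markers of microglia and macrophages were below both controls for 7 of 11 tested, with 0 called by limma, 5 at an unadjusted p under 0.05 and a median log2 ratio of -0.52. Their summed level over 12 genes was 61.2 and 73.0 FPKM in control male and female, and 53.7 and 42.4 in BPA male and female. Lyve1, a marker of macrophages at the borders of the brain, was listed at 4.62 and 5.48 FPKM in control male and female and at 1.73 and 2.03 in BPA male and female (log2 ratio -1.22, limma adjusted p = 0.0636). Csf1r, which all microglia express, was at 7.13 and 7.37 against 6.93 and 6.45 FPKM (log2 ratio -0.11, adjusted p = 0.658). Of the microglia and macrophage markers, Cx3cr1, C1qb, P2ry12, Tyrobp and Cd163 were higher in males and lower in females, BPA against control. Cx3cr1 and C1qb had combined log2 ratios of 0.03 and 0.08. Markers of endothelium and pericytes were below both controls for 7 of 11, with 0 called, 6 at an unadjusted p under 0.05 and a median log2 ratio of -0.42. Of 5 blood markers tested, 2 were below both controls, the hemoglobin chain Hbb-b1 (log2 ratio -0.77, limma adjusted p = 0.0841) and Alas2, an enzyme of heme synthesis in red cells (-0.30). The other 3, among them the more abundant chains Hba1 and Hbb, overlapped, 0 of the 5 were called, 1 had an unadjusted p under 0.05, and the median log2 ratio was -0.30. The medians of these lists and of the meningeal markers above were lower in BPA libraries. Single markers such as Csf1r were not clearly lower. By sex, over all genes with a row, the medians fell less in males than in females. They were -0.17 and -0.95 in males and females for microglia and macrophages, and -0.29 and -0.56 for endothelium and pericytes. For blood they were -0.03 and -0.46, and for meninges and vessel wall -1.13 and -1.79. Hmox1 had log2 ratios of -0.96 in males and -0.85 in females. The part of these cell types in the Hmox1 value was not tested.

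The 5 genes with the pattern most like that of Hmox1 over the 4 libraries were Tfap2d, Igfbp5, Synpr, Gda and Emilin1. Likeness was measured as the Euclidean distance between centered log2 profiles, among the 9095 features whose mean FPKM was 5 or more, and was 0.06 for Tfap2d and 0.12 for Emilin1. All 5 were lower in both BPA libraries, and the likeness describes only 4 libraries.

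The other genes of heme and iron handling included 0 called by limma among 19 tested and 4 with an unadjusted p under 0.05, all lower, again near the 17.3% of all features. In this list 1 was above and 8 were below both controls, beside 18.7% and 31.9% of all features. The median log2 ratio was -0.08. Hmox2, the constitutive heme oxygenase, was listed at 17.8 FPKM in control male, 17.4 in control female and 16.4 in both BPA libraries (log2 ratio -0.10, limma adjusted p = 0.544). The level of Hmox2 was 3.12 and 3.11 times that of Hmox1 in control male and female, and 6.09 and 5.67 times in BPA male and female. The lowest genes of this list were Cp, which encodes the ferroxidase ceruloplasmin, at a log2 ratio of -0.92 (adjusted p = 0.152), and Tf, which encodes transferrin, at -0.88 (adjusted p = 0.241). Aco1, an iron-regulatory protein and aconitase, and Cpox, an enzyme of heme synthesis, stood at the other end at 0.07 and 0.06.

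Nfe2l2 was listed at 3.24 FPKM in control male, 4.41 in control female, 3.23 in BPA male and 2.66 in BPA female. The male libraries were almost the same, and control female stood above the other 3. The BPA over control ratio was 0.994 in males (95% counting interval 0.704 to 1.40) and 0.610 in females (0.431 to 0.857). The combined log2 ratio was -0.32 (SE 0.21, limma adjusted p = 0.462). It was -0.12 without control female, -0.20 without BPA female and -0.52 without control male. Of 11 tested regulators of NRF2, 0 were called by limma and 0 had an unadjusted p under 0.05, where 17.3% of all features did. Of the 11, 1 was above and 2 were below both controls, beside 18.7% and 31.9% of all features. The median log2 ratio was -0.02. Keap1, the repressor of NRF2, was listed at 13.0 and 16.5 FPKM in control male and female and at 15.3 and 14.9 in BPA male and female (log2 ratio 0.04). The list ran from Mafk, a small MAF partner of NRF2, at -0.16 to Nfe2l3, a relative of NRF2, at 0.26. Dpp3, a peptidase that binds KEAP1, came second lowest at -0.10.

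The remaining NRF2 targets among the members did not share one direction. Nqo1 was listed at 3.88 FPKM in control male, 3.07 in control female, 3.53 in BPA male and 3.21 in BPA female, and both BPA values lay between the controls. Its combined log2 ratio was -0.03 (SE 0.18, limma adjusted p = 0.944).

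The subunits of glutamate-cysteine ligase lay on opposite sides of their controls. Gclc was listed at 18.8 FPKM in control male, 16.9 in control female, 20.3 in BPA male and 19.6 in BPA female, so that both BPA libraries were higher. The BPA over control ratio of Gclc was 1.08 in males (95% counting interval 0.954 to 1.22) and 1.16 in females (1.02 to 1.31). Its combined log2 ratio was 0.15 (SE 0.09, limma adjusted p = 0.399), and 0.08 without control female. Gclm was listed at 11.9 FPKM in control male, 10.8 in control female, 9.45 in BPA male and 9.04 in BPA female, so that both BPA libraries were lower. The BPA over control ratio of Gclm was 0.795 in males (0.625 to 1.01) and 0.840 in females (0.653 to 1.08). Its combined log2 ratio was -0.28 (SE 0.10, limma adjusted p = 0.247). The level of Gclc was 1.58 and 1.57 times that of Gclm in control male and female, and 2.14 and 2.17 times in BPA male and female. This ratio of levels was not tested, and neither subunit passed the threshold on its own.

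Of the other NRF2 targets, 26 were tested, and 1 rose and 1 fell by limma. Of the 26, 3 were above and 9 below both controls, beside 18.7% and 31.9% of all features. The median log2 ratio was -0.14. At an unadjusted p under 0.05, 7 were lower and 1 was higher, beside 1585 lower and 698 higher of all 13163 features tested. Slc7a11, the cystine carrier that supplies cysteine for glutathione, fell. It was listed at 12.2 and 14.7 FPKM in control male and female and at 5.76 and 5.41 in BPA male and female (log2 ratio -1.20, SE 0.13, limma adjusted p = 0.0321). With any 1 library left out, its limma adjusted p was between 0.0734 and 0.170, and without the filter on low values it was 0.143. Gsta1, a glutathione transferase that shares sequence with its close relatives, was listed at 3.29 and 2.10 FPKM in control male and female and at 0.68 and 0.50 in BPA male and female (log2 ratio -1.53, adjusted p = 0.107). The row of Ftl1, the ferritin light chain, rose from 24.1 and 21.2 FPKM in control male and female to 53.9 and 46.0 in BPA male and female (log2 ratio 1.12, SE 0.10, limma adjusted p = 0.0256). With any 1 library left out, the log2 ratio of this row ran from 1.01 to 1.23. Without the filter on low values the row was not called (limma adjusted p = 0.124). An assembled transcript with the same protein record held far more, at 891 and 869 FPKM in control male and female and 1067 and 929 in BPA male and female. Summed with it, the log2 ratio of Ftl1 was 0.21 (limma adjusted p = 0.279), so the call does not hold for the gene as a whole. Taldo1, an enzyme of the pentose phosphate pathway, had the second highest log2 ratio, at 0.13 (adjusted p = 0.301). For none of the 9 members did the annotation of the 3411 assembled transcripts hold a protein record of the gene.

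The enzymes that remove peroxide and superoxide or use glutathione included 0 called by limma among 31 tested and 8 with an unadjusted p under 0.05, all lower, beside the same 17.3% of all features. In this list 2 were above and 10 below both controls, beside 18.7% and 31.9% of all features, and the median log2 ratio was -0.05. Sod3, the extracellular superoxide dismutase, was listed at 2.85 and 2.81 FPKM in control male and female and at 0.98 and 1.40 in BPA male and female (log2 ratio -0.99, limma adjusted p = 0.145). Prdx3, the mitochondrial peroxiredoxin, was at 38.2 and 34.1 against 25.9 and 25.1 FPKM (log2 ratio -0.49, adjusted p = 0.0711). Ggt7 and Msra, which encodes a methionine sulfoxide reductase, stood highest, at 0.13 and 0.11. Glucocorticoid-responsive genes were set beside the metallothioneins because glucocorticoids induce Mt1 and Mt2A. Of these, 12 were tested, 0 were called by limma and 0 had an unadjusted p under 0.05. Of the 12, 1 was above and 3 were below both controls, beside 18.7% and 31.9% of all features, and their median log2 ratio was -0.06. They ran from Cebpd, at a log2 ratio of -0.50, and Nfkbia, at -0.38, to Klf9, at 0.06, and Per1, a clock gene, at 0.21. Fkbp5, a glucocorticoid-induced chaperone, was listed at 18.9 and 18.4 FPKM in control male and female and at 16.8 and 17.6 in BPA male and female (log2 ratio -0.11, adjusted p = 0.485).

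**Figure D4:**
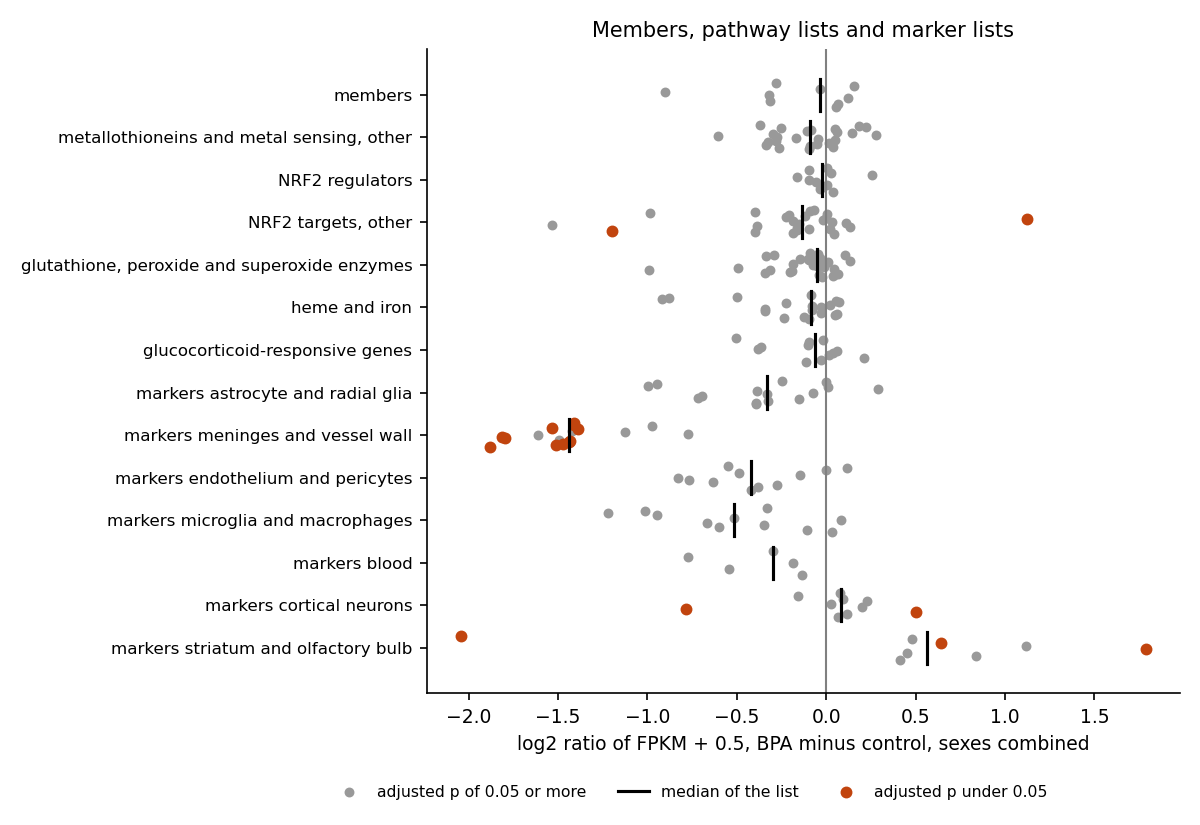
Combined log2 ratio of FPKM + 0.5, BPA minus control, for each tested gene of the members, the pathway lists and the marker lists. Each point is a gene, orange where the limma adjusted p is under 0.05, and black bars are list medians. The medians of the pathway lists lie between -0.14 and -0.02, whereas the meningeal markers have a median of -1.44 and the orange point on the right of the NRF2 targets is the Ftl1 row.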

How the data were processed

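RNA-seq of the prefrontal cortex (frontal cortex in the labels) was analyzed from 4 libraries. The authors used oligo(dT) to isolate mRNA, aligned reads with Bowtie 2 to Rnor_6.0 (rn6) and quantified expression by RSEM. The submitters' processing notes also name HISAT, and versions are not given in the sources used here. The deposited values are FPKM with 2 decimals, of which 0.01 is the lowest and was taken as 0. No counts were used.

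The authors' methods use a Poisson test, with the sexes of a treatment combined and for each sex alone. Here, limma 3.58.1 (R 4.3.3, trend in the prior variance, no covariate, Benjamini-Hochberg adjustment) was fitted to log2(FPKM + 0.5) of the 13163 features (genes or assembled transcripts) whose mean FPKM was 1 or more. It has 2 residual degrees of freedom. The error of each gene combines the spread between its own libraries, sex included, with a prior variance fitted over all features. The SE, interval and p-value of a gene therefore do not rest on its own libraries alone. The smallest p of an exact permutation test of 2 libraries against 2 is 0.333. On simulated data for this comparison (13163 features), limma called 73 of 200 features changed 2-fold and 1 unchanged feature. The simulation kept the mean level of each feature but shuffled the spreads over features, so spread did not follow level. The share called need not hold for these data. A threshold of 0.05 on the adjusted p was used.

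Fragments were estimated from FPKM times effective length (length minus 60 bases) and the depth at which scarce features came nearest to whole numbers. Between 84.0 and 86.1% of those used came within 0.1 of a whole number. On simulated data the largest error of the depth was 0.0502%. Ratios have exact conditional binomial intervals.

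Gene IDs of 9 members matched the RefSeq gene table (GRCr8). The members, the gene lists and the naming rule were chosen with earlier results of these data known. Named were all members with a row, the 2 highest and 2 lowest tested genes of each pathway list, and the 5 genes nearest in profile to the member with the largest combined log2 ratio in absolute value. Other genes named (Hmox2, Slc30a1, Fkbp5, Mt4 and markers) were chosen after their values were seen. Python 3.11.15 was used with scipy 1.17.1, pandas 2.3.3, numpy 2.4.6 and, for figures, matplotlib 3.10.9.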

Additional observations from a re-analysis of the deposited data

Results flagged for a closer look

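For 3 members the male and the female BPA libraries lay on opposite sides of their controls, and the difference between the sexes was not tested, since each sex and treatment has 1 library. For Mt1, the log2 ratio on FPKM + 0.5 was 0.45 in males and -0.34 in females, a difference (female minus male) of -0.80. For Mt2A, the log2 ratios were 0.20 and -0.07, a difference of -0.26. For Nqo1, they were -0.12 and 0.06, a difference of 0.18. The counting interval of each of these ratios spanned a ratio of 1.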

How the results depend on the processing

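The count of features called with the sexes combined moved from 74 (14 higher, 60 lower) to 0 without the filter on low values, where 2628 had an unadjusted p under 0.05. It moved to 164 at a mean FPKM of at least 5 and to 477 among rows with an NCBI Gene ID, and fell to between 3 and 17 with each library left out. The pseudocounts, the rescaled libraries and sex as a block gave 63 to 104 calls. The count of features whose log2 ratio was 1 or more in absolute value was 726 in males and 878 in females. It was 1877 and 2200 with a pseudocount of 0.1, 401 and 508 with 1, 47 and 55 with 5, 206 and 335 among rows with an NCBI Gene ID, and 404 and 529 at a mean FPKM of at least 1 over the 2 libraries of a sex. For these counts the cause was not tested. Of 239 alternative values of the members, 230 kept their direction and their side of the threshold or moved by less than the counting interval. Part of these could not differ from the main value. Single rows repeat the sums, and within a sex neither the filter on NCBI Gene IDs nor that on mean FPKM alters the ratio of a member. The tally is therefore no measure of robustness. Hmox1 was called among rows with an NCBI Gene ID (adjusted p = 0.0117, log2 ratio -0.90). In that fit fewer features are tested, and the prior variance is also fitted anew to those rows alone. The smaller number of tests does not by itself account for the call. With a pseudocount of 5, its log2 ratio was -0.48 in males, -0.42 in females and -0.45 combined. With 0.1 it was -1.05, -0.93 and -0.99. With each library left out, the log2 ratio ran from -0.86 to 0.97 for Mt1, with -0.86 without BPA male and -0.46 without control female. It ran from -0.33 to 0.46 for Mt2A, with -0.33 without BPA male and -0.20 without control female. For Mtf1 it ran from -0.01 (-0.015 without BPA female) to 0.26, and for Nqo1 from -0.18 to 0.12, with 0.12 without control male and 0.03 without BPA female. With sex as a block, which pairs the libraries of a sex, 86 features were called (18 higher, 68 lower), the adjusted p was 0.0833 for Hmox1 and 0.0797 for Mt3, and no member was called. With its assembled transcript, an alternative chosen after seeing the data, Ftl1 had a log2 ratio of 0.21. No gene had several rows of one symbol, so single rows gave the values of the sums. Depth limits Mt1 most, with 10 to 40 estimated fragments. Nqo1, with 39 to 51, and Hmox1, with 38 to 81, follow without a clear order between them.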
